A study of Saccharomyces cerevisiae with 7 samples.

Results

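Ergosterol is the main sterol of the yeast plasma membrane. This account covers 32 genes of Saccharomyces cerevisiae that make, take up, store or carry it, or that regulate its synthesis. They were chosen by name from the symbols of the array: 20 genes called ERG followed by a number, and 12 listed ones (HMG1, HMG2, MVD1, IDI1, NCP1, UPC2, ECM22, AUS1, PDR11, ARE1, ARE2 and HES1). They are 32 of the 5449 genes tested, each was read by 1 probe set, and none was under the background floor on any array.

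Ergosterol is built from acetyl-CoA through mevalonate, farnesyl diphosphate and squalene, and the later steps, from squalene epoxidation on, use molecular oxygen, several of them with heme. Yeast therefore cannot make sterol without air and then takes it up from the medium. The zinc cluster factors Upc2 and Ecm22 activate synthesis genes when sterol is low, and Upc2 also activates uptake and anaerobic cell wall genes. Ssn6 (gene CYC8) and Tup1 (gene TUP1) form a corepressor that DNA-binding repressors bring to promoters, among them those of hypoxic genes.

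RNA was measured as log2 expression on 7 one-colour Affymetrix arrays, 1 sample each. All samples were BY4742, a haploid alpha laboratory strain, cultured in YEP, a rich medium, with glucose at 2% (200 mL), until the OD600 was 0.8. The groups were wild type (3 samples), an Ssn6 knockout (2) and a TUP1 knockout (2), here called the ssn6 and tup1 deletions. Nothing in the labels says that samples came from separate cultures or transformants, so p-values rest only on sample-to-sample spread, which may be technical. How the genes were removed is likewise not stated there.

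The deleted genes were low in the libraries labelled as lacking them, though whether their probe sets lie within the deleted parts is not known. CYC8 read 11.22 to 11.32 in wild type and 5.62 and 6.07 in the ssn6 deletion, above the floor of those arrays, and TUP1 read 11.56 to 12.50 in wild type and was under the floor on both tup1 arrays. STE3, a receptor gene of alpha cells, read 12.17 to 12.41 in wild type, and AGA2, an agglutinin gene of a cells, 6.22 to 6.78. AGA2 rose to 10.58 to 11.70 on the 4 deletion arrays, so mating-type genes moved along with the sterol genes, and their part in the sterol results was not tested. Of 4 marker genes deleted or altered in BY4742, LYS2 and URA3 were under the floor on all 7 arrays, LEU2 lay close to it (5.48 to 5.80, under it on 1 array) and HIS3 read 11.82 to 12.57. The floor (the 95th percentile of the probe sets for fission yeast genes) lay at 5.50 to 5.67, against median gene levels of 10.95 to 11.06. On wild-type replicate 2 the 3' probe set of actin read 2.85 above the 5' one, against 0.52 to 0.92 elsewhere, a ratio used as a sign of RNA quality. The sterol genes were steadier than most genes between replicates: the median absolute difference was 0.07 for the ssn6 pair (0.08 over all genes), 0.14 for the tup1 pair (0.21) and 0.08 to 0.20 for wild-type pairs (0.19 to 0.29).

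As a set, the sterol genes were called about as often as all genes, and in the ssn6 deletion 6 of 7 calls lay outside the synthesis pathway, against 4 of 8 in tup1. In the ssn6 deletion 5 rose, 2 fell and 25 did not pass (adjusted p under 0.05), while 19.4% of all genes passed, 9.18% higher and 10.3% lower. In the tup1 deletion 2 rose, 6 fell and 24 did not pass, with 23.0% of all genes called, 10.4% higher and 12.6% lower. Called members made up 21.9% of the 32 in ssn6 and 25.0% in tup1, close to those shares. The part of the ssn6 calls outside synthesis depended on the fit. A trended robust fit added the synthesis genes ERG1, ERG25 and ERG28 (higher) and ERG6 and ERG2 (lower) to the ssn6 calls. Array weights added those and also ERG13, HMG1, ERG12, ERG26 and ERG27 (all lower), with UPC2 (higher) the only added gene from outside synthesis. Both deletions were compared with the same 3 wild-type arrays. In bulk RNA, fewer cells of one kind and less RNA per cell cannot be told apart. The median log2 difference of the members was 0.08 in ssn6 and −0.18 in tup1, against −0.14 and −0.08 over all genes.

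The split by role was uneven. Of the 25 synthesis genes 0 rose and 1 fell in ssn6, and 0 rose and 4 fell in tup1, by limma (3 higher and 5 lower, and 2 higher and 10 lower, at an unadjusted p under 0.05). These calls were smaller shares than the 19.4% and 23.0% of all genes called. Those lower in tup1 were a somewhat larger share than the 12.6% of all genes. That 0 rose depended on the fit. With the trended robust fit ERG1, ERG25 and ERG28 passed as higher in ssn6, and HMG2 and ERG28 in tup1. In tup1 that fit also added ERG26, ERG27 and ERG3 as lower. Of the 7 genes for uptake, esterification, sterol binding and regulation, 5 rose and 1 fell in ssn6, and 2 rose and 2 fell in tup1. Calls made up 85.7% and 57.1% of these 7, against 19.4% and 23.0% of all genes. The role groups were set with earlier results of these data known. The counts rested on single arrays: in ssn6, 3 members passed without either ssn6 array, and in tup1 5 passed without wild-type replicate 1 or without tup1 replicate 1.

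**Figure D1:**
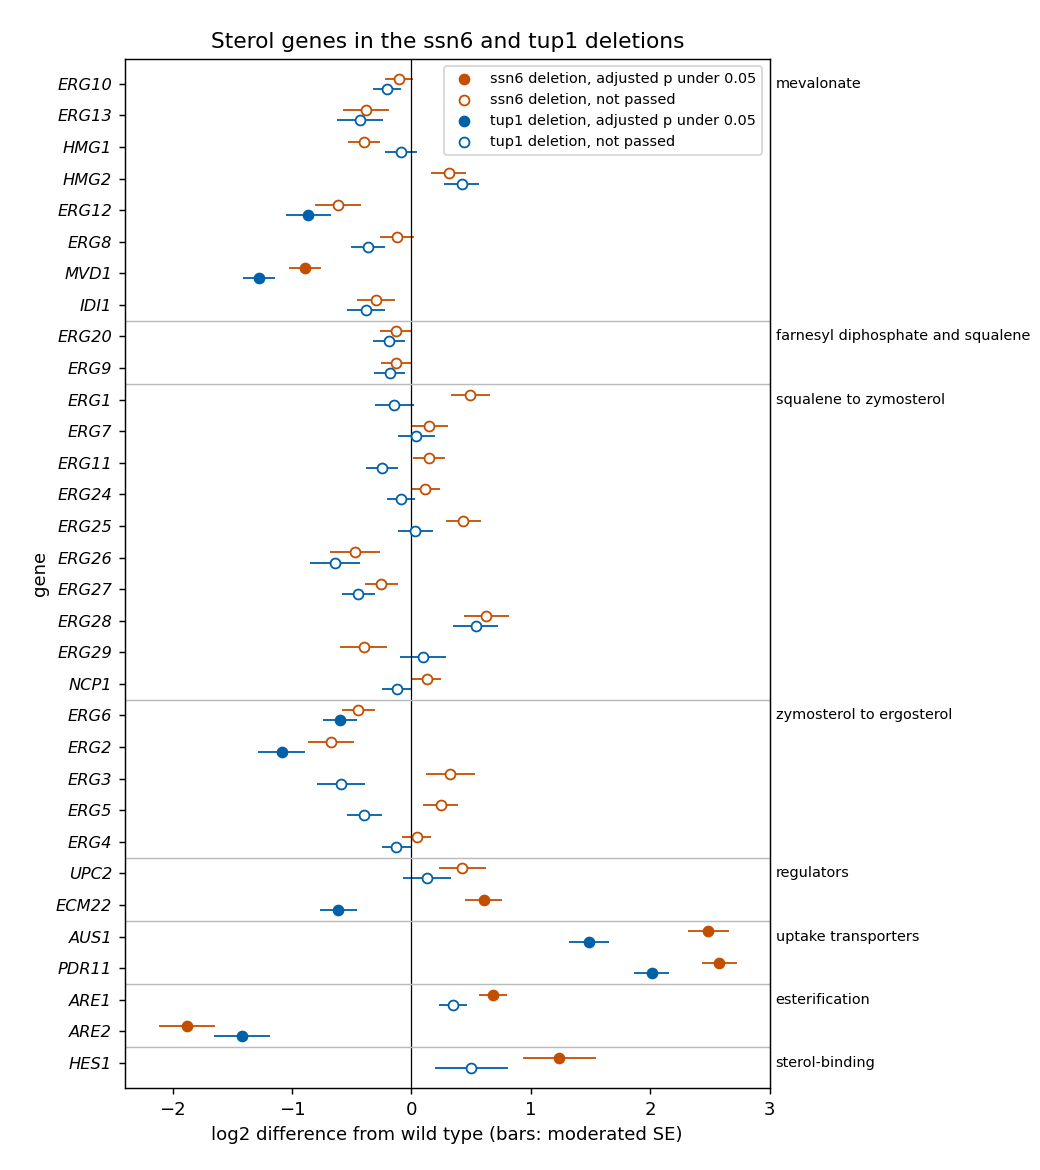
Log2 difference from wild type of each of the 32 genes (x axis), ordered by role (y axis, names of the roles at the right), for the ssn6 deletion (orange) and the tup1 deletion (blue). Bars are moderated standard errors and filled points passed an adjusted p of 0.05; AUS1 and PDR11 stand to the right, ARE2 and MVD1 to the left, and most synthesis genes lie near 0.

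The largest rises among the 32 genes were in the sterol uptake transporters. AUS1 and PDR11 encode ATP-binding cassette (ABC) transporters that bring sterol into anaerobic cells. AUS1 read 10.14, 9.71 and 10.01 in wild type, 12.38 and 12.50 in the ssn6 deletion and 11.32 and 11.56 in the tup1 deletion. PDR11 read 9.71, 9.40 and 9.65 in wild type, 12.10 and 12.24 in ssn6 and 11.66 and 11.54 in tup1. For both genes every deletion array lay above every wild-type array, and every ssn6 array above every tup1 array.

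In the ssn6 deletion AUS1 was 5.61-fold higher than in wild type (log2 2.49 ± 0.17 SE, adjusted p = 9.38e-05, n = 2 and 3 arrays) and PDR11 5.98-fold higher (2.58 ± 0.15, adjusted p = 4.44e-05). In the tup1 deletion the rises were 2.80-fold for AUS1 (1.49 ± 0.17, adjusted p = 0.00138) and 4.03-fold for PDR11 (2.01 ± 0.15, adjusted p = 0.000174). These 4 calls held under all 16 alternatives tried. By size of rise PDR11 was number 96 and AUS1 number 103 of 5449 genes in ssn6, and numbers 109 and 195 in tup1. Set against each other, the deletions differed at AUS1, which was 2.00-fold higher in ssn6 (95% interval of the log2 difference 0.56 to 1.44, adjusted p = 0.0458), a call at the edge: it was lost after median centring (adjusted p = 0.0501) and without any 1 of 6 arrays, all but wild-type replicate 2 (adjusted p up to 0.394). The AUS1 call between the deletions was also lost with a block for replicate number, as numbered or crossed. At PDR11 the difference was 0.57 ± 0.16 (adjusted p = 0.126; 95% interval 0.19 to 0.95).

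Both transporter genes lie close to anaerobic cell wall genes. In the gene order of assembly R64, AUS1 is next to TIR2, which is read in the opposite direction and has TIR4 beyond it, and PDR11 is separated from TIR3 by 1 open reading frame not measured here. TIR genes encode mannoproteins of cold- and anaerobically grown walls. TIR2 rose by 3.88 ± 0.24 in ssn6 and 3.26 ± 0.24 in tup1, TIR4 by 3.39 ± 0.19 and 2.35 ± 0.19, and TIR3 by 3.04 ± 0.48 and 2.01 ± 0.48. TIR3 varied in wild type (10.37, 9.47 and 11.37), and its tup1 call was lost without wild-type replicate 1 or either tup1 array (adjusted p up to 0.127). On their other sides, MNT3 beside PDR11 read 0.04 ± 0.15 and 0.17 ± 0.15 and did not pass, while YIL014C-A, the next gene beyond it, rose by 1.12 ± 0.24 in ssn6 (adjusted p = 0.0202) and 1.18 ± 0.24 in tup1 (adjusted p = 0.0150). Next to AUS1 on that side is YOR011W-A, which was under the floor on every array. YOR012W, the gene after it, read −0.73 ± 0.24 in ssn6 and −0.32 ± 0.24 in tup1 and did not pass (adjusted p = 0.0780 and 0.378).

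Of 8 DAN and TIR genes of the anaerobic wall, 8 rose in ssn6 and 7 in tup1. These were 100% and 87.5% of the list, against 9.18% and 10.4% of all genes called higher. Medians of the list were 3.22 and 2.18, against −0.14 and −0.08 over all genes. Among the 8, DAN1 rose most, by 6.44 ± 0.17 and 5.28 ± 0.17, and PAU24 (also called DAN3) by 5.70 ± 0.13 and 4.99 ± 0.13. A list of 9 other drug resistance ABC transporters and their regulators moved less: 2 rose in ssn6, 3 rose in tup1 and 0 fell by limma (2 and 0 lower at an unadjusted p under 0.05). Those calls were 22.2% and 33.3% of the list, against 19.4% and 23.0% of all genes. The list leaves out PDR18, an ABC transporter gene counted below with sterol storage and export. PDR18 rose by 1.94 ± 0.35 in ssn6 and 1.70 ± 0.35 in tup1, in tup1 more than AUS1 (1.49). PDR10, a relative of PDR5, rose by 0.89 ± 0.22 and 1.13 ± 0.22, and YOR1, an exporter of oligomycin, by 0.63 ± 0.15 and 0.82 ± 0.15. STB5, a regulator gene, rose by 0.68 ± 0.15 in tup1. All calls of these 3 genes were lost without 1 array of the deletion concerned (adjusted p up to 0.201). AUS1 and PDR11 share sequence with other ABC genes, and whether their probe sets take signal from relatives was not tested.

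**Figure D2:**
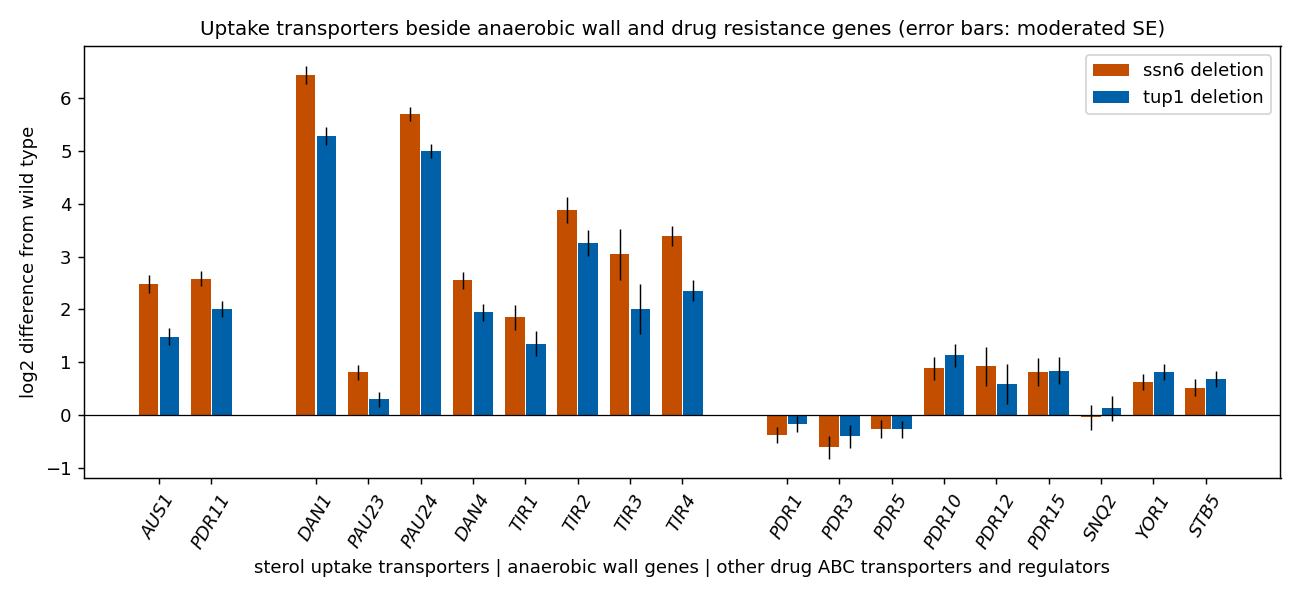
Log2 difference from wild type (y axis, bars start at 0, error bars are moderated standard errors) of AUS1 and PDR11, of 8 DAN and TIR genes (PAU23 and PAU24 are also called DAN2 and DAN3) and of 9 drug resistance genes, in the ssn6 (orange) and tup1 (blue) deletions. The transporters, at 1.49 to 2.58, lie within the range of the anaerobic wall genes and above all 9 drug resistance genes. The ABC transporter gene PDR18 is not among the 9 and is not shown.

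The genes for sterol esterification moved in opposite directions in the ssn6 deletion. ARE1 and ARE2 encode related acyltransferases that turn sterol into storage esters, Are2 being the main enzyme of aerobic cells. ARE2 read 10.57, 11.05 and 11.11 in wild type, 9.15 and 8.91 in ssn6 and 9.77 and 9.22 in tup1. It was 3.68-fold lower in ssn6 (log2 −1.88 ± 0.23, adjusted p = 0.00218) and 2.67-fold lower in tup1 (−1.42 ± 0.23, adjusted p = 0.00701), calls that held under all 16 alternatives. In ssn6 ARE2 was number 14 of 5449 genes by size of fall, and in tup1 number 102.

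ARE1 read 11.26, 11.29 and 11.24 in wild type, 11.96 and 11.93 in ssn6 and 11.64 and 11.58 in tup1. No deletion array overlapped those of wild type. ARE1 rose 1.61-fold in ssn6 (0.68 ± 0.12, adjusted p = 0.00894), a call lost without ssn6 replicate 1 (adjusted p = 0.115) or 2 (0.112), in fits where the single array left takes its spread from the remaining groups. In tup1 ARE1 read 0.35 ± 0.12 above wild type and did not pass (adjusted p = 0.0745). The deletions did not differ past the threshold at either gene (ARE1 0.34 ± 0.13, adjusted p = 0.220; ARE2 −0.46 ± 0.26, adjusted p = 0.363).

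HES1, also called OSH5, encodes a sterol-binding protein of the oxysterol-binding family. It read 8.19, 8.23 and 7.31 in wild type, 9.17 and 9.13 in ssn6 and 8.15 and 8.67 in tup1, so the ssn6 arrays were above and the tup1 arrays among or above those of wild type. HES1 rose 2.36-fold in ssn6 (1.24 ± 0.30, adjusted p = 0.0303), a call lost without ssn6 replicate 1 (adjusted p = 0.163) or 2 (0.168). Without wild-type replicate 3, the lowest array, its rise was 0.94 and still passed. In tup1 the difference was 0.50 ± 0.30 (adjusted p = 0.264).

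**Figure D3:**
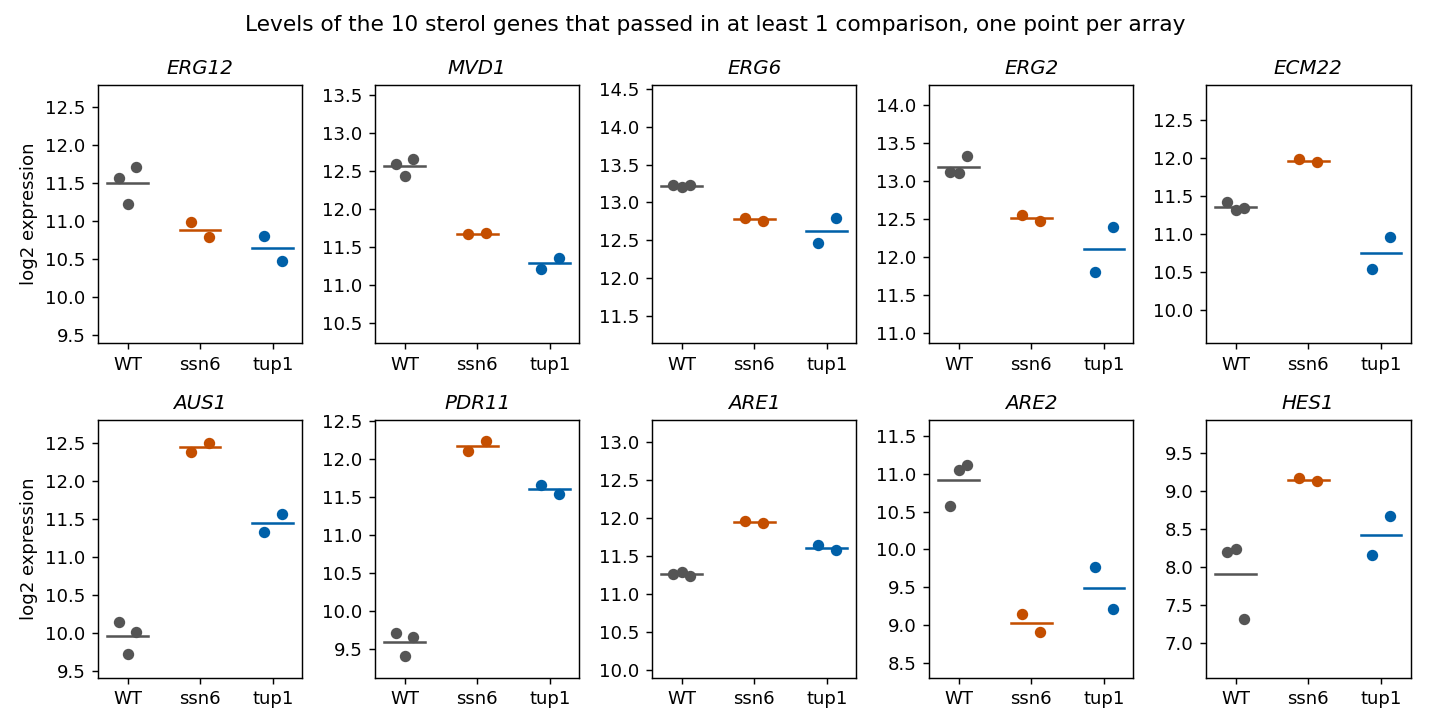
Log2 expression (y axis, the same span of 3.4 units in each panel) of the 10 sterol genes that passed in at least 1 comparison, with 1 point per array and a line at each genotype's mean. AUS1, PDR11 and ARE1 are higher and ARE2, MVD1, ERG12, ERG2 and ERG6 lower on all 4 deletion arrays than on any wild-type array, and ECM22 is above wild type in ssn6 and below it in tup1.

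The sterol regulators differed from each other. ECM22 read 11.43, 11.32 and 11.35 in wild type, 11.99 and 11.95 in ssn6 and 10.55 and 10.96 in tup1, 3 groups that do not overlap. It was 1.52-fold higher in ssn6 (0.61 ± 0.16, adjusted p = 0.0353) and 1.53-fold lower in tup1 (−0.61 ± 0.16, adjusted p = 0.0316). The direct comparison of the deletions gave a 2.33-fold higher level in ssn6 (1.22 ± 0.17, adjusted p = 0.0187), with an interval of 0.82 to 1.62.

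The direction of ECM22 was the same under all 16 alternatives, but its calls were fragile. Its calls in each deletion and between the deletions were lost with a block for replicate number. Those against wild type were also lost with the crossed replicate block. Against wild type, the ssn6 call was lost without any 1 wild-type or ssn6 array (adjusted p 0.0551 to 0.215), and the tup1 call with wild type and tup1 fitted alone and without wild-type replicate 1 or 3, either ssn6 array or tup1 replicate 1 (adjusted p up to 0.153). Without tup1 replicate 1, its lower array, the tup1 difference was −0.40. Between the deletions the call was lost without either ssn6 array (adjusted p up to 0.204) or tup1 replicate 1 (0.0885).

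UPC2, the paralog of ECM22, read 10.57, 10.89 and 10.49 in wild type, 11.10 and 11.06 in ssn6 and 10.52 and 11.04 in tup1. The ssn6 arrays were above wild type, while 1 tup1 array lay within its range and the other above it. UPC2 did not pass in ssn6 (0.43 ± 0.20, adjusted p = 0.171) or tup1 (0.13 ± 0.20, adjusted p = 0.668).

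Of 11 other regulators of oxygen, heme and sterol responses, 3 rose and 0 fell in each deletion by limma (2 and 0 lower at an unadjusted p under 0.05). That is 27.3% called in each deletion, against 19.4% of all genes in ssn6 and 23.0% in tup1. SET4, a SET domain gene, rose by 4.40 ± 0.17 in ssn6 and 3.24 ± 0.17 in tup1. SUT1, a factor that promotes sterol uptake, rose by 2.21 ± 0.19 and 1.74 ± 0.19, and its relative SUT2 by 1.07 ± 0.14 and 0.55 ± 0.14. The SUT2 call in tup1 was lost without wild-type replicate 1 or any 1 deletion array (adjusted p up to 0.0872).

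Of the 8 synthesis genes of the mevalonate stage, 1 fell in ssn6 (12.5%) and 2 in tup1 (25.0%), against 10.3% and 12.6% of all genes called lower. In each deletion 1 of the 8 read above wild type, a share of 12.5%, where 36.4% of all genes did in ssn6 and 43.3% in tup1. Their median differences were −0.34 and −0.37. MVD1, mevalonate diphosphate decarboxylase, read 12.59, 12.43 and 12.66 in wild type, 11.67 and 11.68 in ssn6 and 11.21 and 11.36 in tup1. Its 4 deletion arrays were all below wild type. It fell 1.85-fold in ssn6 (−0.89 ± 0.13, adjusted p = 0.00503) and 2.43-fold in tup1 (−1.28 ± 0.13, adjusted p = 0.000950). The tup1 call held under all 16 alternatives, and the ssn6 call was lost without ssn6 replicate 1 (adjusted p = 0.0678) or 2 (0.0711).

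ERG12, mevalonate kinase, read 11.57, 11.22 and 11.71 in wild type, 10.98 and 10.80 in ssn6 and 10.81 and 10.48 in tup1. It fell 1.82-fold in tup1 (−0.86 ± 0.19, adjusted p = 0.0199), a call lost without wild-type replicate 1 or either tup1 array (adjusted p up to 0.0849). In ssn6 ERG12 read −0.61 ± 0.19 (adjusted p = 0.0636). The other low members did not pass in either deletion: the synthase gene ERG13 read −0.38 and −0.43, the isomerase gene IDI1 −0.30 and −0.38, the phosphomevalonate kinase gene ERG8 −0.12 and −0.36, and the thiolase gene ERG10 −0.11 and −0.20.

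HMG1 and HMG2 encode HMG-CoA reductase, the main control point of the pathway, Hmg1 being the main form in air. HMG1 read 11.78, 11.73 and 11.53 in wild type, 11.32 and 11.25 in ssn6 and 11.56 and 11.62 in tup1. HMG2 read 12.52, 12.29 and 12.61 in wild type, 12.87 and 12.70 in ssn6 and 12.94 and 12.86 in tup1. The ssn6 arrays were thus below wild type at HMG1 and above it at HMG2, but neither gene passed. The differences were −0.39 ± 0.13 (adjusted p = 0.0805) and 0.31 ± 0.15 (adjusted p = 0.173) in ssn6, and −0.09 ± 0.13 (adjusted p = 0.654) and 0.42 ± 0.15 (adjusted p = 0.0800) in tup1.

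At the branch point, ERG20 (farnesyl diphosphate synthase) and ERG9 (squalene synthase) stayed within 0.19 of wild type in both deletions. ERG9 read −0.13 ± 0.13 in ssn6 (95% interval −0.43 to 0.18) and −0.18 ± 0.13 in tup1 (−0.49 to 0.12).

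Of the 10 genes from squalene to zymosterol, which include most of the oxygen-requiring steps, 0 passed in either deletion by limma (3 in each at an unadjusted p under 0.05). Over all genes 19.4% passed in ssn6 and 23.0% in tup1. ERG1, squalene epoxidase, read 12.65, 12.26 and 12.51 in wild type, 12.90 and 13.03 in ssn6 and 12.43 and 12.23 in tup1. The ssn6 arrays were above wild type and the tup1 arrays within or just below its range. The difference was 0.50 ± 0.16 in ssn6 (adjusted p = 0.0716) and −0.14 ± 0.16 in tup1 (adjusted p = 0.553).

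ERG11, the lanosterol demethylase inhibited by azole drugs, read 13.32, 13.30 and 13.36 in wild type, 13.44 and 13.51 in ssn6 and 12.95 and 13.21 in tup1. These are differences of 0.15 ± 0.13 (95% interval −0.17 to 0.46) and −0.25 ± 0.13 (−0.56 to 0.07). ERG28, the scaffold of the demethylation complex, read 0.63 ± 0.19 in ssn6 (adjusted p = 0.0566) and 0.54 ± 0.19 in tup1 (adjusted p = 0.0793). Other enzymes of that complex read the other way, ERG26 at −0.47 and −0.64 and ERG27 at −0.25 and −0.45, while the oxidase gene ERG25 read 0.43 and 0.03. ERG7, ERG24 and NCP1 lay between −0.12 and 0.15 in both deletions, and ERG29 at −0.40 and 0.10.

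Of the last 5 genes, from zymosterol to ergosterol, 2 fell in tup1 and 0 passed in ssn6 by limma (2 lower at an unadjusted p under 0.05). That is 40.0% called lower in tup1, against 12.6% of all genes there and 10.3% in ssn6. ERG2, sterol isomerase, read 13.12, 13.11 and 13.33 in wild type, 12.56 and 12.47 in ssn6 and 11.80 and 12.39 in tup1. It fell 2.13-fold in tup1 (−1.09 ± 0.20, adjusted p = 0.00946), a call that held under all 16 alternatives, and read −0.67 ± 0.20 in ssn6 (adjusted p = 0.0522). In ssn6 ERG2 passed with the trended robust fit, with array weights and with wild type and ssn6 fitted alone. All deletion arrays were below wild type at ERG2.

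ERG6, sterol methyltransferase, read 13.24, 13.20 and 13.23 in wild type, 12.79 and 12.76 in ssn6 and 12.46 and 12.79 in tup1. It fell 1.51-fold in tup1 (−0.60 ± 0.14, adjusted p = 0.0245), a call lost with wild type and tup1 fitted alone and without wild-type replicate 1, either ssn6 array or tup1 replicate 1 (adjusted p up to 0.122). The tup1 call of ERG6 was also lost with the replicate block. In ssn6 ERG6 read −0.45 ± 0.14 (adjusted p = 0.0656). It passed there with the trended robust fit, with array weights and with wild type and ssn6 fitted alone. The desaturase genes ERG3 and ERG5 read 0.33 ± 0.20 and 0.24 ± 0.15 in ssn6 and −0.59 ± 0.20 and −0.39 ± 0.15 in tup1, and the reductase gene ERG4 0.04 and −0.13, none of them past the threshold.

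**Figure D4:**
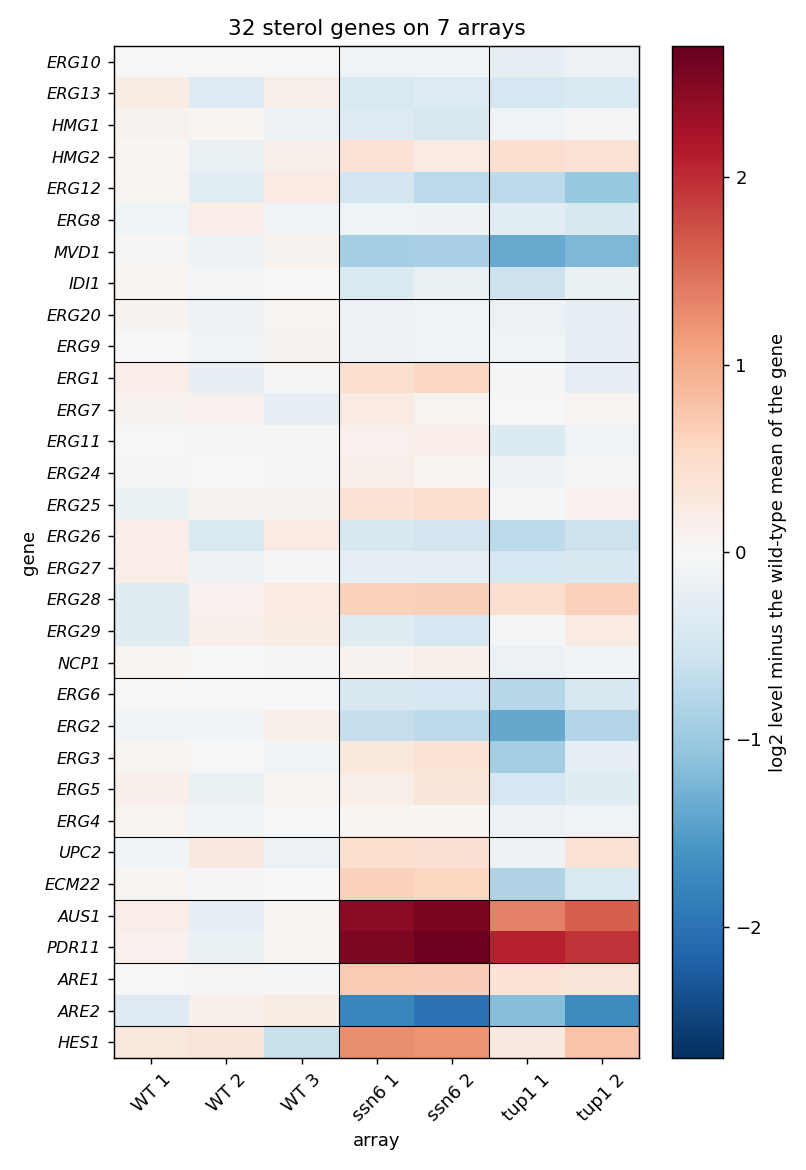
Log2 level of each of the 32 genes minus its wild-type mean (colour; red higher, blue lower) on the 7 arrays (columns), ordered by role and separated by lines. AUS1 and PDR11 are red and ARE2 and MVD1 blue on all 4 deletion arrays, and wild-type replicate 2 is the lowest wild-type array at ERG13, ERG12, ERG26 and ERG1.

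Wild-type replicate 2, the array with the uneven actin signal, bore on the synthesis genes. It was the lowest wild-type array at ERG13 (12.21, against 12.77 and 12.71), ERG26 (11.89, against 12.48 and 12.52), ERG12, ERG1 and ERG5. Without it 9 members passed in ssn6, 4 higher and 5 lower, and 12 in tup1, 2 higher and 10 lower. Calls over all genes went up as well, from 1059 to 1196 in ssn6 (551 higher and 645 lower). In tup1 they went from 1255 to 1366 (654 higher and 712 lower). ERG12 (−0.75), ERG13 (−0.56) and ERG26 (−0.67) then passed as lower in ssn6 while ECM22 did not pass, and ERG13 (−0.61), ERG26 (−0.84), ERG27 (−0.51) and ERG5 (−0.48) were added in tup1. These genes were named after their values were seen, and the part of RNA quality in them was not tested.

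Compared directly, most sterol genes read higher in the ssn6 than in the tup1 deletion. Of the 32 members 28 read higher in ssn6 than in tup1, against 42.3% of all genes, and their median difference was 0.23, against −0.07 over all genes. The count was 27 without ssn6 replicate 2, 26 without tup1 replicate 1, 27 without tup1 replicate 2 and 28 under the other alternatives. Most of the others leave the mean of each deletion as it is and could not change this count. By limma 2 passed as higher in ssn6, ECM22 and AUS1, and 0 as lower (10 higher and 0 lower at an unadjusted p under 0.05), where 2.4% of all genes were called, 1.91% higher and 0.496% lower. The next largest differences were 0.92 ± 0.22 at ERG3 (adjusted p = 0.0844), 0.74 ± 0.33 at HES1 (adjusted p = 0.286), 0.64 ± 0.18 at ERG1 (adjusted p = 0.122) and 0.64 ± 0.16 at ERG5 (adjusted p = 0.0968). At ERG3 the tup1 arrays themselves differed by 0.67 (11.71 and 12.38), the widest gap of that pair among the members. The 4 members that read lower in ssn6 were HMG1, HMG2, ERG29 and ARE2.

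Among 23 genes for storage, transport and export of sterol, 5 rose and 2 fell in ssn6 and 4 rose and 2 fell in tup1, with medians of 0.20 and 0.17. Calls made up 30.4% and 26.1% of this list, against 19.4% and 23.0% of all genes, so the tup1 share was close to that of all genes. PDR18, an ABC transporter gene linked to membrane sterol, read 7.45, 6.83 and 7.88 in wild type, 9.10 and 9.55 in ssn6 and 9.45 and 8.71 in tup1, rises of 1.94 ± 0.35 (adjusted p = 0.0104) and 1.70 ± 0.35 (adjusted p = 0.0151). These calls were lost without ssn6 replicate 2 (adjusted p = 0.0969) and tup1 replicate 1 (0.125). YEH1 and YEH2 encode steryl ester hydrolases, which release sterol from the esters that the ARE enzymes make, and they moved apart. YEH1 rose by 1.55 ± 0.16 in ssn6 (adjusted p = 0.000842) and YEH2 fell by 1.06 ± 0.12 in tup1 (adjusted p = 0.00131), calls that held under all 16 alternatives. In ssn6 YEH2 fell by 0.46 ± 0.12 (adjusted p = 0.0377), and in tup1 YEH1 read 0.51 ± 0.16 above wild type (adjusted p = 0.0575). YEH1 was also higher in ssn6 than in tup1 (1.04 ± 0.17, adjusted p = 0.0329), a call lost without wild-type replicate 1, either ssn6 array or tup1 replicate 1 (adjusted p up to 0.309).

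PDR16, a lipid transfer protein gene, fell by 0.97 ± 0.20 in ssn6 (adjusted p = 0.0178) and 1.35 ± 0.20 in tup1 (adjusted p = 0.00471). The other rises were NCR1 and LAM4 in both deletions and OSH2 in tup1, genes of intracellular sterol transport. NCR1 rose by 0.61 ± 0.17 in ssn6 (adjusted p = 0.0476, close to the threshold) and 0.85 ± 0.17 in tup1 (adjusted p = 0.0147). LAM4 rose by 0.81 ± 0.20 (adjusted p = 0.0326) and 1.03 ± 0.20 (adjusted p = 0.0130), and OSH2 by 0.796 ± 0.165 in tup1 (adjusted p = 0.0156). Whether the calls of NCR1, LAM4 and OSH2 held under the alternatives was not examined. PRY1, for a secreted sterol-binding protein, rose by 1.47 ± 0.39 in ssn6 (adjusted p = 0.0377), with wild-type levels of 12.39, 11.21 and 12.63. That call was lost without wild-type replicate 1 or any 1 deletion array (adjusted p up to 0.197). Without wild-type replicate 2, the low array, the rise was 1.04 and passed.

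In the lists of genes that feed or branch from the pathway, no larger share was called than the 19.4% of all genes in ssn6 and 23.0% in tup1. Of 14 genes for electron donors, heme and other lipid oxygenases, 0 passed in ssn6 by limma (4 at an unadjusted p under 0.05) and 1 rose in tup1, HEM14 of heme synthesis, by 0.68 ± 0.19 (adjusted p = 0.0432). Of 15 genes for other isoprenoids and acetyl-CoA synthesis, 1 fell in ssn6, and 2 rose and 1 fell in tup1 (6.67% and 20.0% called). The median absolute log2 difference of these 15 was 0.33 in ssn6 and 0.48 in tup1, against 0.33 and 0.34 over all genes. BET2, a prenyltransferase subunit gene, fell by 0.95 ± 0.18 in ssn6, the farnesyltransferase subunit gene RAM1 by 0.68 ± 0.14 in tup1, and the polyprenyl synthase genes SRT1 and COQ1 rose by 1.05 ± 0.26 and 0.56 ± 0.14 in tup1. Of 14 genes for turnover or control of sterol enzymes, 2 fell in ssn6 and 3 in tup1 (14.3% and 21.4%). NSG1, whose product protects Hmg2 from degradation, fell by 0.58 ± 0.13 (adjusted p = 0.0242) and 0.61 ± 0.13 (adjusted p = 0.0182). The others were INO4, a phospholipid regulator gene, in ssn6 (−0.62), and SSM4, for a ubiquitin ligase, and SPF1, for an ATPase of the endoplasmic reticulum, in tup1 (−0.56 and −0.53). Each call of this paragraph was lost without at least 1 single array (adjusted p up to 0.330).

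**Figure D5:**
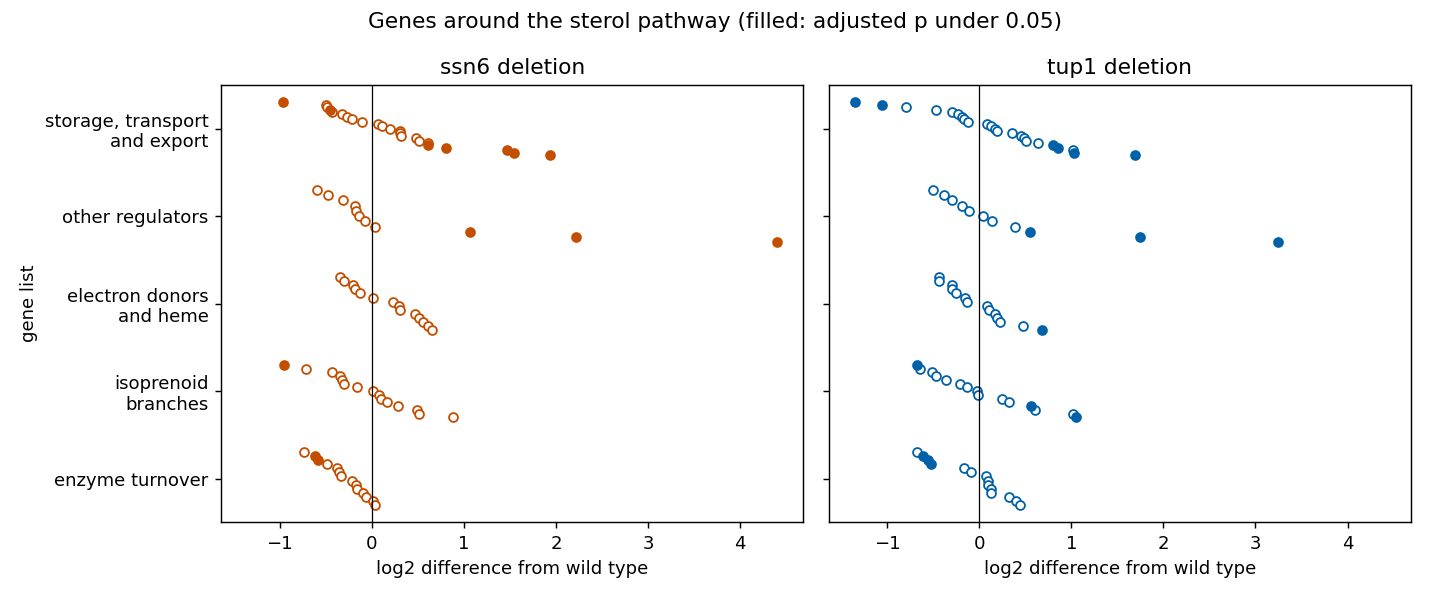
Log2 difference from wild type (x axis) of single genes in 5 lists around the sterol pathway (y axis), in the ssn6 deletion (left) and the tup1 deletion (right). Filled points passed an adjusted p of 0.05; SET4, SUT1 and SUT2 lie to the right of the other regulators, and genes of electron donors and heme lie within 0.68 of wild type.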

How the data were processed

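The deposited values are log2 expression per probe set, deposited as the authors processed them. The submitters' processing notes name RMA and limma but say neither what each did nor its version. Of 10928 probe sets, 5498 had 1 budding yeast gene, 1746 belonged to fission yeast, 1 had several genes and 3683 had none. For 47 genes with several probe sets the brightest was used, leaving 5449 genes, and 12 symbols were updated through the RefSeq table of assembly R64. That table gave gene order; no coordinates or sequences were used. All 7 arrays were fitted with limma 3.58.1 (R 4.3.3), with 1 mean per genotype, 4 residual and 3.19 prior degrees of freedom, two-sided tests and Benjamini-Hochberg adjustment over 5449 genes at 0.05. The fit was tested on simulated data. The number of arrays limits the precision. Genes described singly were those past the threshold, the pairs HMG1 and HMG2, UPC2 and ECM22, AUS1 and PDR11, and ARE1 and ARE2, and ERG1, ERG9 and ERG11; from each other list, at most 3 per comparison by size of change. YEH2 and PDR16 in ssn6, NCR1, LAM4, OSH2, the neighbours of AUS1 and PDR11 and the other sterol genes were named after their values were seen. The members and all lists were chosen with earlier results of these data known. The 16 alternatives covered normalization, a filter at the floor, the fit, array weights, replicate blocks, probe-set averaging and leaving out each array.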

Additional observations from a re-analysis of the deposited data

How the results depend on the processing

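Of 17 calls on 10 sterol genes, 8 held under all 16 alternatives and 0 changed sign. Several of the 16 cannot change a member's difference, among them probe-set averaging, the floor filter and leaving out an array of a genotype not compared. The sterol genes called in ssn6 were 7, 12 with a trended robust fit, 18 with array weights and 3 to 9 on leaving out 1 array. In tup1 they were 8, 13 with the trended robust fit and 5 to 12 on leaving out 1 array. Between the deletions they were 2, 1 with median centring, 5 with array weights and 0 to 2 on leaving out 1 array, with 0 by limma without either ssn6 array or tup1 replicate 1 (6, 3 and 7 at an unadjusted p under 0.05). Over all genes the counts of 1059, 1255 and 131 became 2139 in ssn6 and 412 between the deletions with array weights, and 767 in tup1 with 2 genotypes fitted alone. Leaving out 1 array gave 279 to 1196, 427 to 1366 and 5 to 257; where that leaves 1 array in a genotype, its spread is taken from the others. Deviations from the genotype means correlated at −0.361 to 0.285 between same-numbered samples, so the numbers were not taken as pairs. Between samples with different numbers the correlations were −0.285 to 0.361. The main fit had no block. With the replicate block 6, 6 and 0 sterol genes were called (8 between the deletions at an unadjusted p under 0.05 by limma) and 58 of all genes between the deletions; with the crossed replicate block, chosen after seeing the data, 7, 8 and 1. The replicate block also lost several calls of the other lists, among them SUT2 in tup1 and YEH1 between the deletions. Uncalled values that changed sign were UPC2 in tup1 (−0.135 to 0.393 on leaving out 1 array), and ERG9 (−0.011 to 0.119) and ERG6 (−0.011 to 0.315) between the deletions. The cause was not tested.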
